A study of Rattus norvegicus with 8 samples.

Results

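The genes described here are 10 members of the bone morphogenetic protein (BMP) pathway, taken by symbol from the 15590 genes of the table of rat Achilles tendon RNA. They comprised 3 ligands (Bmp2, Bmp4 and Bmp6), 3 secreted antagonists (Grem1, Nog and Chrdl1), 3 target genes of the Id family (Id1, Id2 and Id3) and the inhibitory SMAD gene Smad6. All 10 were in the table and all 10 passed the filter on low values. Polyadenylated RNA of the right Achilles tendon was compared between 4 libraries of rats killed as soon as they had run uphill on a treadmill for 1 h (the 0 h p.r. or post-run group) and 4 libraries of naïve control rats (NC) that did not run. Both groups were WT male SD rats aged 8 to 10 weeks. The labels say that controls, like runners, were killed immediately, whereas the methods of the treadmill experiment have cage controls collected together with a group that rested after its run. If the latter held for these libraries, running and the time of collection cannot be told apart. The titles number the libraries of a group as replicates without saying whether each came from 1 rat, so the p-values measure the spread between these libraries.

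BMPs are secreted dimers that bind pairs of type I and type II serine/threonine kinase receptors, which phosphorylate SMAD1, SMAD5 and SMAD9. With SMAD4 these enter the nucleus and switch on direct targets, of which the Id genes are the classical readout, together with Smad6, whose product blocks the same receptors and SMADs. Gremlin 1 (Grem1), noggin (Nog) and chordin-like 1 (Chrdl1) bind the ligands outside the cell and keep them from the receptors. In tendon, BMPs are known for their part in forming the attachment to bone and for the cartilage and bone that can arise in injured tendon.

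Levels are given in FPKM, a measure of fragments that corrects for gene length and depth and so allows genes to be compared. Differences are log2 fold changes of FPKM + 0.5, 0 h p.r. minus NC, fitted with limma across all 13863 genes with enough signal and adjusted over all of them by the Benjamini-Hochberg method. The thresholds were an adjusted p below 0.05 together with a fold of 2 or more. Of the 10 members, 1 passed both thresholds, Grem1, and it was higher after running. Over all genes tested, 2.7% passed, with 1.8% higher and 0.894% lower, and 5.72% had an adjusted p below 0.05 at any fold, among the members again Grem1 alone. With 1 call in 10 genes, the count itself is no result about the members. The fitted differences of the members were above 0 for 5 genes and below 0 for the other 5, with a median of 0.25 against -0.001 over all tested genes.

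The libraries held 11350560 to 16484163 reads in NC and 13157202 to 17897056 at 0 h p.r., as recovered from the FPKM steps. NC replicate 2 had the fewest reads and the largest share of FPKM from the 13 mitochondrial protein-coding genes, 31.1% against 16.3% to 21.9% in the other 7 libraries. Tendon markers were present in all 8 libraries, with Tnmd, which encodes tenomodulin, between 87.0 and 348 FPKM and Scx, the tendon transcription factor scleraxis, between 20.5 and 53.5 FPKM. The 10 tendon markers summed to 7545 to 13090 FPKM in NC and 10779 to 22296 FPKM after running, with none at 0 in any library. Their fitted differences were above 0 for 7 and below 0 for 3, among them Tnmd, and 1 passed both thresholds, Egr1, which was higher. Dcn was the largest part of the sum in each library, at 3630 to 6746 FPKM in NC and 5212 to 14777 FPKM after running. Transcripts of neighbouring tissues were present too, and in bulk RNA fewer cells of a type and less RNA per cell cannot be told apart. Summed over 11 listed skeletal muscle markers, of which 9 were in the table, FPKM ranged from 4768 to 6943 in NC and from 929 in replicate 4 to 29508 in replicate 1 at 0 h p.r., with 0 past both thresholds and none at 0 in any library. The fitted differences of these 9 were above 0 for 6 and below 0 for 3, the latter being Mb and the slow-fibre genes Myh7 and Tnnt1.

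**Figure D1:**
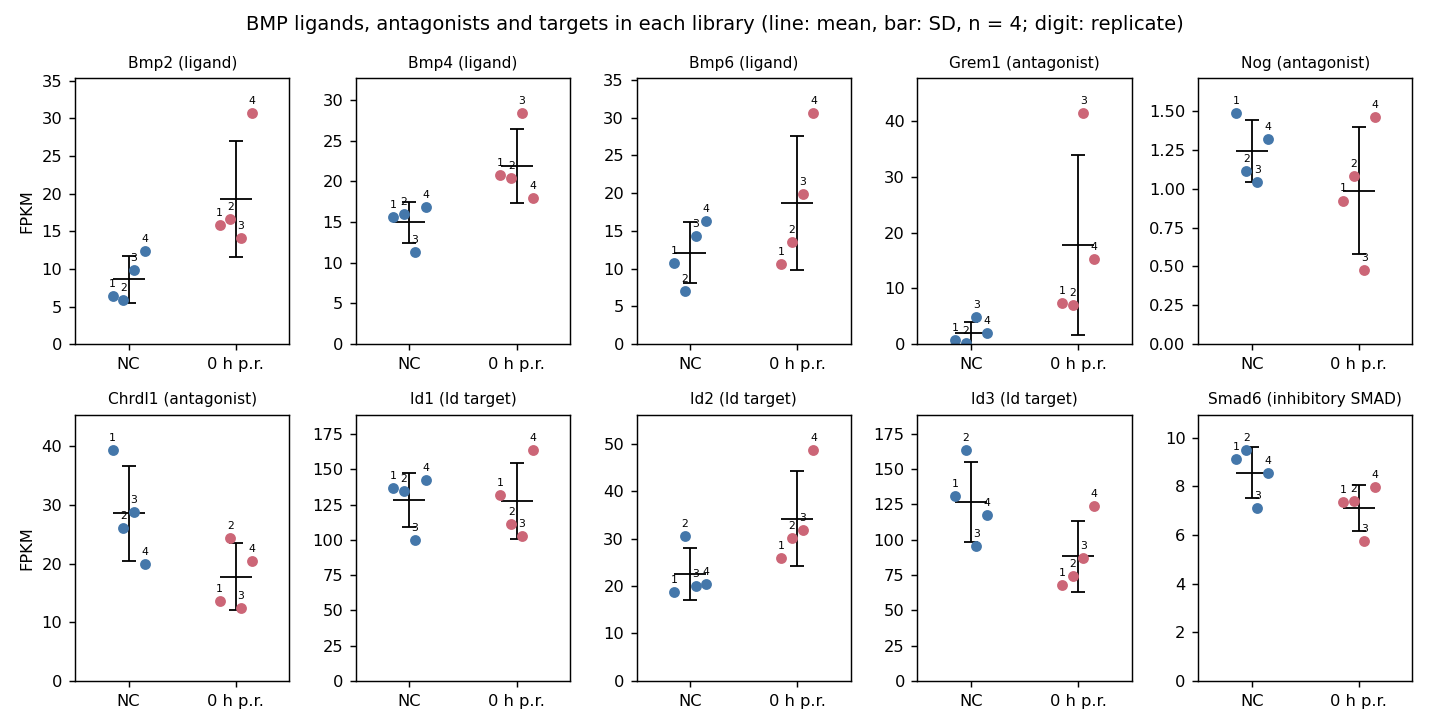
FPKM of each of the 10 genes in the 4 NC and 4 0 h p.r. libraries, with a separate linear axis from 0 for each gene. Points are libraries with their replicate number, horizontal lines are group means and bars are SD (n = 4). The groups are apart for Bmp2, Bmp4 and Grem1 and overlap for the other 7 genes.

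Promoter sequence is shown for Grem1, the member that passed both thresholds, and for Id2 and Id3, the pair of Id genes whose ratio separated the groups. Each is the 250 bases before the annotated start of the gene, from RefSeq on build GRCr8, written 5′ to 3′ on the strand of the gene. RefSeq promoters were matched for 8 of the 10 members, all but Bmp2 and Smad6. Capitals mark GGCGCC, a GC-rich element that SMAD1 and SMAD5 can bind, and GTCT or its other-strand form AGAC, the SMAD box. The Grem1 window lies at chr3:120978320-120978569 on the minus strand, the Id2 window at chr6:47470996-47471245 on the minus strand and the Id3 window at chr5:153656041-153656290 on the plus strand.

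Grem1: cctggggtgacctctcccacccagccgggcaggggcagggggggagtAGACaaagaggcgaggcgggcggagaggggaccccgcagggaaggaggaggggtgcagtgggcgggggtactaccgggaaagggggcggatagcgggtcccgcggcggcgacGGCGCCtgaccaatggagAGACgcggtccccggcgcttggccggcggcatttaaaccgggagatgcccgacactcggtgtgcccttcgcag

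Id2: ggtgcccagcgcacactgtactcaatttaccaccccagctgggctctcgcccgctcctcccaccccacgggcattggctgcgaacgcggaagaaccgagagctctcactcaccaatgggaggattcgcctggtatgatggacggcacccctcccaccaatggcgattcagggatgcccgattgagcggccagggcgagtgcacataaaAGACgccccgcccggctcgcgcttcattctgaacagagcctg

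Id3: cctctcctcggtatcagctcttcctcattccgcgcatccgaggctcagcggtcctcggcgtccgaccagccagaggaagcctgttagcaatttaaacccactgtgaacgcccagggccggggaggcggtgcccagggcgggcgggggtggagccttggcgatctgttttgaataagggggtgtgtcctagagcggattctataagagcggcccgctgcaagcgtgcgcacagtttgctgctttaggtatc

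GGCGCC was in the Grem1 and Nog windows, and in 8.69% of all 33469 RefSeq promoter windows of this length. GTCT, read on both strands, was in 7 of the 8 member windows and in 84% of all windows, so a match to these 4 letters carries little information. Id3 had no match to either. The CCAAT box was in the windows of Grem1, Id1, Id2 and Bmp6 and in 34% of all windows, and the TATA box TATAAA was in that of Id1 and in 12.9% of all. None of the 8 windows held the cyclic AMP element TGACGTCA, the AP-1 site TGANTCA or the EGR site GCGNGGGCG, which were in 1.59%, 6.34% and 4.29% of all windows. The known BMP-responsive element of Id1 lies further upstream than these windows reach, and the matches describe letters, not binding.

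The ligands stood at higher mean levels after running in all 3 cases, but none passed the adjusted threshold in limma. The study itself, with DESeq2 on read counts at the same thresholds, named Bmp2 and Grem1 among the up-regulated genes. Bmp2, which drives cartilage and bone formation, was at 6.38, 5.85, 9.81 and 12.4 FPKM in NC replicates 1 to 4 and at 15.8, 16.6, 14.1 and 30.7 FPKM at 0 h p.r. All 4 post-run libraries lay above the highest NC library, and replicate 4 lay farthest out. The means were 8.62 ± 3.09 and 19.3 ± 7.68 FPKM (SD, n = 4 each). The log2 fold change of Bmp2 was 1.11 (standard error 0.30, 95% interval 0.45 to 1.78). In limma its adjusted p was 0.0612, above the threshold although the fold, 2.16, was past 2. Leaving out each library in turn moved the log2 fold change between 0.87, without 0 h p.r. replicate 4, and 1.301, without NC replicate 4.

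Bmp4, a ligand made by many mesenchymal cells, was at 15.7, 16.0, 11.3 and 16.9 FPKM in NC and at 20.8, 20.4, 28.4 and 17.97 FPKM after running. The groups did not overlap, although the gap between the highest NC library and the lowest post-run library was about 1 FPKM. The means were 15.0 ± 2.52 and 21.9 ± 4.51 FPKM (SD, n = 4 each). The log2 fold change was 0.53 (95% interval 0.13 to 0.92, adjusted p = 0.114 in limma).

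Bmp6, known in cartilage and as the liver signal that sets hepcidin, was at 10.8, 7.10, 14.3 and 16.3 FPKM in NC and at 10.6, 13.6, 19.9 and 30.6 FPKM at 0 h p.r. Here the groups overlapped, and only replicates 3 and 4 after running exceeded all NC libraries. The log2 fold change was 0.55 (95% interval -0.23 to 1.33, adjusted p = 0.394 in limma), and it went to 0.28 without 0 h p.r. replicate 4. The interval reaches from a small decrease to more than a doubling, so this sample size did not settle the direction for Bmp6.

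The 3 ligands differed in how they spread over the post-run libraries. Replicate 4 was the highest of all 8 libraries for Bmp2 and Bmp6 but the lowest post-run library for Bmp4, whose highest value was in replicate 3. Added together, the ligands came to 32.8, 29.0, 35.4 and 45.6 FPKM in NC and to 47.2, 50.6, 62.3 and 79.3 FPKM after running, with means of 35.7 ± 7.13 and 59.8 ± 14.5 FPKM (SD, n = 4 each). The groups were apart in this sum. Bmp4 gave 31.8% to 55.3% of it in NC and 22.7% to 45.5% after running, while Bmp2 gave 19.4% to 27.7% and 22.6% to 38.7%. The sums and ratios of members given here were chosen after their values were seen and are descriptions without a test.

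Markers of cartilage and bone had fitted differences of the same sign as the ligands, and like the ligands none passed both thresholds in limma. With DESeq2 the study named Acan, Bglap and Sost among the up-regulated genes. Of 10 listed cartilage markers 7 were tested and all 7 had fitted differences above 0 (median 1.63), with 0 past both thresholds. The summed FPKM of the list was 1189 to 1681 in NC and 1733 to 4564 at 0 h p.r., highest in replicate 4. Most of this sum was Chad, which encodes chondroadherin, at 1136 to 1574 FPKM in NC and 1558 to 4132 FPKM after running, whereas Col2a1, the main collagen of cartilage, was at 0.934 to 40.6 and 16.2 to 171 FPKM. Col10a1, the marker of hypertrophic cartilage, was listed at 0 in NC replicate 2, reached 19.0 FPKM in NC and was at 9.47 to 63.7 FPKM after running. Of 10 bone markers 8 were tested, all 8 with differences above 0 (median 1.47) and 0 past both thresholds. Their sum was 306 to 470 FPKM in NC and 570 to 2184 FPKM after running, again highest in replicate 4. Most of it was Spp1, which encodes osteopontin, at 281 to 454.5 FPKM in NC and 489 to 1983 FPKM after running. Of the defining genes, Bglap was at 0 to 2.21 FPKM in NC and 0.154 to 18.2 FPKM after running. Sp7 was at 0 to 0.277 and 0.240 to 0.9885 FPKM, and Sost at 0 to 0.151 and 0.165 to 1.24 FPKM. Each value listed at 0 was in NC. The part of cartilage and bone RNA in the ligand values was not tested. Without 0 h p.r. replicate 4 the log2 fold changes of Bmp2, Bmp4 and Bmp6 were 0.87, 0.61 and 0.28.

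**Figure D2:**
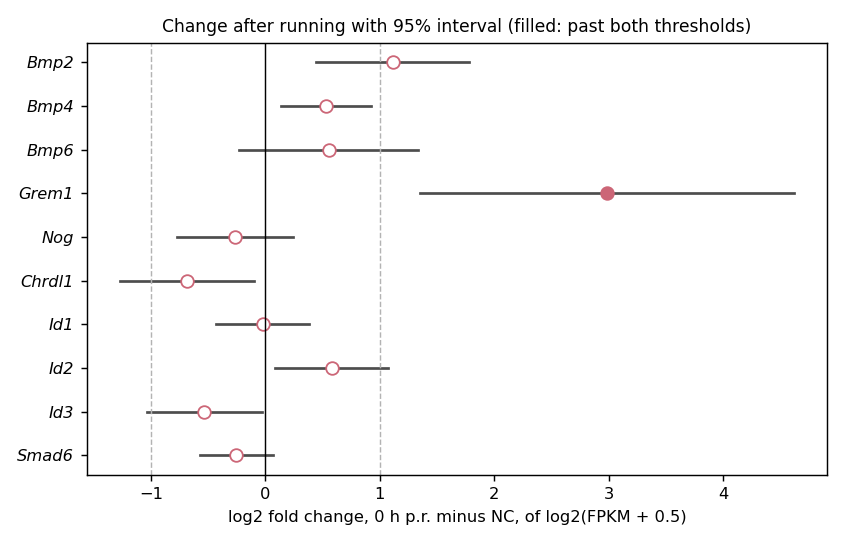
Fitted log2 fold change of log2(FPKM + 0.5), 0 h p.r. minus NC, for the 10 genes, with the 95% interval from limma. Dashed lines mark a fold of 2, and the filled point is Grem1 at 2.98, the only gene past both thresholds. Bars that cross 0 belong to Bmp6, Nog, Id1 and Smad6.

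Among the antagonists, Grem1 rose after running and was the member with the largest difference, while Nog and Chrdl1 had lower means that did not pass the test. Gremlin 1 binds BMP2 and BMP4 with high affinity. Its gene was at 0.694, 0.133, 4.90 and 1.99 FPKM in NC and at 7.44, 7.08, 41.4 and 15.2 FPKM at 0 h p.r. The lowest post-run library stood above the highest NC library, but libraries of the same group were far from each other, with a range of 37.0-fold in NC and 5.85-fold after running. The reads behind these values were 47, 5, 274 and 113 in NC and 377, 489, 2022 and 1045 after running, so the lowest NC value rested on 5 reads. The means were 1.93 ± 2.13 and 17.8 ± 16.2 FPKM (SD, n = 4 each), and the log2 fold change was 2.98 (standard error 0.72, 95% interval 1.35 to 4.61, adjusted p = 0.0471 in limma).

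The Grem1 call was close to the threshold and was lost under several settings while the difference stayed large. It had a log2 fold change of 3.53 and an adjusted p of 0.059 with a pseudocount of 0.1, 2.98 and 0.052 with no filter, and 3.60 and 0.0613 with voom on the recovered reads. With a library left out, the log2 fold change stayed between 2.46 and 3.51, but the adjusted p was under 0.05 only without NC replicate 3 (0.0364). It was 0.128 without NC replicate 1, 0.0859 without NC replicate 2, 0.0789 without NC replicate 4, and 0.0717, 0.0908, 0.109 and 0.0634 without 0 h p.r. replicates 1, 2, 3 and 4. The within-group SD of Grem1 on the log2 scale, 1.25, was larger than that of 98.3% of the tested genes, whose median was 0.262. From NC to 0 h p.r. its mean level moved from above 16.2% to above 70.6% of the tested genes.

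Nog, which encodes a high-affinity antagonist of BMP2 and BMP4 that limits bone formation, had the lowest mean of the members in both groups. It stood at 1.49, 1.12, 1.05 and 1.32 FPKM in NC and at 0.924, 1.08, 0.479 and 1.46 FPKM after running, from 10 to 43 reads per library. The groups overlapped, with a log2 fold change of -0.27 (95% interval -0.77 to 0.24, adjusted p = 0.547 in limma). The interval leaves the direction unsettled for Nog. Its log2 fold change was -0.08 without 0 h p.r. replicate 3 and -0.41 without 0 h p.r. replicate 4.

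Chrdl1, an antagonist that binds BMP4 and is made by stromal cells, was at 39.4, 26.1, 28.7 and 19.9 FPKM in NC and at 13.6, 24.4, 12.5 and 20.5 FPKM at 0 h p.r. Replicates 1 and 3 after running were below every NC library and the other 2 lay within the NC range, while all 4 were below the NC mean of 28.6 ± 8.13 FPKM (SD, n = 4). The log2 fold change was -0.68 (95% interval -1.27 to -0.10), and the adjusted p in limma was 0.159. Summed adipocyte markers were lower in all 4 post-run libraries than in NC. Of 10 such genes 10 were tested, all 10 had fitted differences below 0 and 6 passed both thresholds, with none at 0 in any library. Their summed FPKM was 3309 to 6790 in NC and 1106, 1605, 1967 and 2451 in post-run replicates 1 to 4, an order that differs from that of Chrdl1. The part of adipocyte RNA in the Chrdl1 values was not tested.

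Because Grem1 and Chrdl1 stood in opposite directions, the make-up of the antagonist transcripts differed more than their sum. Grem1 made up 1.67%, 0.484%, 14.1% and 8.57% of the summed FPKM of the 3 antagonists in NC and 33.9%, 21.7%, 76.1% and 40.9% after running. Chrdl1 exceeded Grem1 by 5.87-fold to 197-fold in NC and by 1.35-fold to 3.46-fold in 3 of the post-run libraries, and in replicate 3 it was the lower of the pair, at 0.302 of the Grem1 level. The sum itself overlapped between the groups, at 41.6, 27.4, 34.7 and 23.3 FPKM in NC and 22.0, 32.6, 54.4 and 37.2 FPKM at 0 h p.r. Antagonist transcripts per ligand transcript were 1.27, 0.945, 0.98 and 0.509 in NC and 0.466, 0.645, 0.873 and 0.469 after running, also with overlap.

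**Figure D3:**
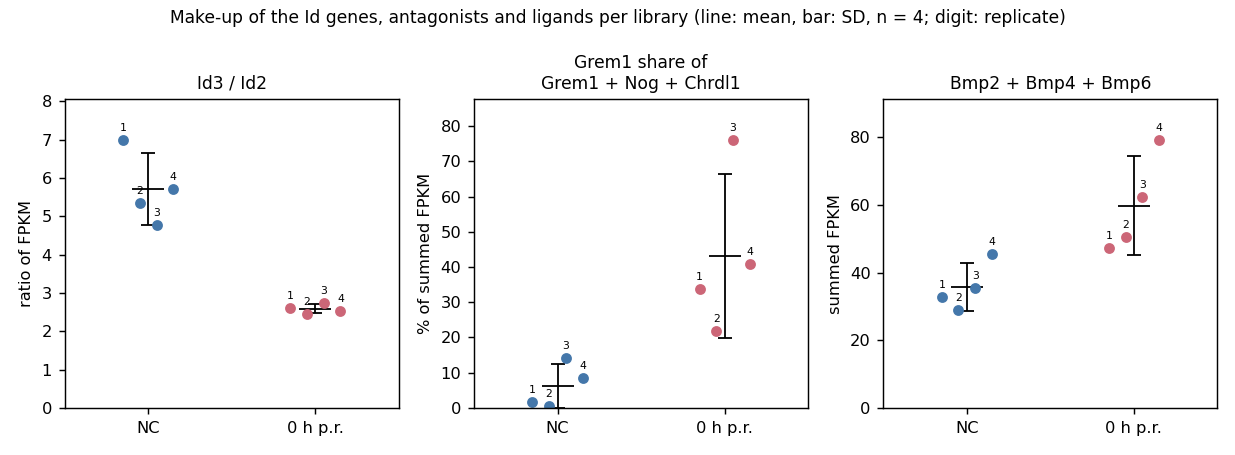
The ratio of Id3 to Id2 FPKM, the share of Grem1 in the summed FPKM of Grem1, Nog and Chrdl1 in percent, and the summed FPKM of Bmp2, Bmp4 and Bmp6, in each library on linear axes from 0. Points carry replicate numbers, lines are means and bars are SD (n = 4). The groups are apart in all 3 panels, with Id3/Id2 at 4.78 to 6.996 in NC and 2.46 to 2.74 at 0 h p.r.

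Id1, Id2 and Id3 encode helix-loop-helix proteins without a DNA-binding domain that hold back differentiation factors. Their fitted differences did not share a sign, and none of the 3 passed the test. Id1, the target most often used as a readout of BMP signalling, was at 137, 135, 100.1 and 142 FPKM in NC and at 131.5, 111.5, 103 and 164 FPKM at 0 h p.r. The post-run values lay on both sides of the NC mean. The means were 128.5 ± 19.2 and 127 ± 27.1 FPKM (SD, n = 4 each), with a log2 fold change of -0.02, a 95% interval of -0.43 to 0.39 and an adjusted p of 0.963 in limma. A fold of 2 in either direction lay outside that interval.

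Id2, the family member with broad expression in mesenchyme, was at 18.7, 30.6, 20.03 and 20.5 FPKM in NC and at 26.0, 30.1, 31.8 and 48.7 FPKM after running. NC replicate 2 was higher than 2 of the post-run libraries, and the other 3 NC libraries were below all 4. The log2 fold change was 0.58 (95% interval 0.09 to 1.07, adjusted p = 0.155 in limma), and 0.74 without NC replicate 2.

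Id3, which is often transcribed together with Id1, was at 131, 164, 95.7 and 117 FPKM in NC and at 68.0, 74.1, 87.25 and 124 FPKM at 0 h p.r. Replicates 1, 2 and 3 after running lay below every NC library and replicate 4 lay within the NC range. The log2 fold change was -0.53 (95% interval -1.03 to -0.03, adjusted p = 0.197 in limma), and -0.71 with an adjusted p of 0.0601 without 0 h p.r. replicate 4.

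The contrast between Id2 and Id3 was steadier than either gene. The ratio of Id3 to Id2 was 6.996, 5.34, 4.78 and 5.71 in NC and 2.62, 2.46, 2.74 and 2.54 at 0 h p.r., with means of 5.71 ± 0.941 and 2.59 ± 0.12 (SD, n = 4 each). The post-run libraries agreed closely in this ratio although replicate 4 was well above the rest for both genes. Id2 made up 6.53% to 9.31% of the summed Id FPKM in NC and 11.5% to 14.5% after running. The summed level overlapped fully between the groups, at 216 to 329 FPKM in NC and 216 to 336 FPKM after running.

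Smad6, the inhibitory SMAD that acts against BMP receptors, was at 9.11, 9.499, 7.11 and 8.53 FPKM in NC and at 7.35, 7.40, 5.75 and 7.95 FPKM at 0 h p.r. The groups overlapped through NC replicate 3, and the difference was small, with a log2 fold change of -0.25 (95% interval -0.57 to 0.07, adjusted p = 0.341 in limma). Smad6 varied least of the 10 genes between libraries of a group, with a within-group SD of 0.182 on the log2 scale.

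Across the 10 genes, 3 had groups that did not overlap (Bmp2, Bmp4 and Grem1), all higher after running, where 15.6% of all tested genes had groups apart and 8.15% had them apart in this direction and 7.47% in the other. Without adjustment, 6 members had p under 0.05, 4 of them higher and 2 lower, against 22.6% of all tested genes. The 95% interval included 0 for the other 4, Bmp6, Nog, Id1 and Smad6. Libraries differed in which members they carried at high level. Replicate 4 at 0 h p.r. was the highest of its group for 7 of the 10 members, while replicate 3 was the lowest of its group for 5 and the highest of all 8 libraries for Bmp4 and Grem1. NC replicate 2, the library with the large mitochondrial share, was the lowest of all 8 for Bmp2, Bmp6 and Grem1 and the highest for Id3 and Smad6. Without it the log2 fold change of Grem1 was 2.48.

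**Figure D4:**
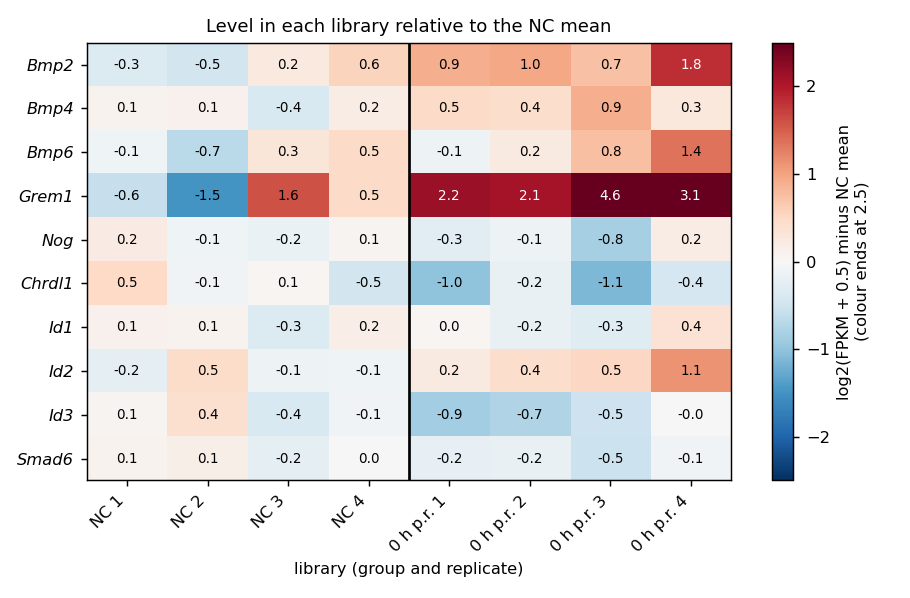
Level of each gene in each library as log2(FPKM + 0.5) minus its NC mean on that scale, with the value written in each cell and a vertical line between the 4 NC and 4 0 h p.r. libraries. The color scale ends at 2.5 either way. Grem1 is the row with the widest span, and replicate 4 at 0 h p.r. has the highest values of Bmp2, Bmp6, Id1 and Id2 among the 8 libraries.

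Ordered by mean FPKM, the NC libraries ran from Id1 (128.5) and Id3 (127) through Chrdl1 (28.6) and Id2 (22.5) to Bmp4 (15.0), Bmp6 (12.1), Bmp2 (8.62) and Smad6 (8.56), with Grem1 (1.93) and Nog (1.24) last. Neighbours in this order had overlapping ranges except at 3 steps, from Id3 to Chrdl1, from Id2 to Bmp4 and from Smad6 to Grem1. After running, Id1 (127) and Id3 (88.3) again led, and the ranges of Id2 (34.2), Bmp4 (21.9), Bmp2 (19.3), Bmp6 (18.7), Grem1 (17.8) and Chrdl1 (17.8) each overlapped with the next. Next came Smad6 (7.11), whose range lay below that of its neighbour Chrdl1 but overlapped with that of Grem1, and last Nog (0.987), below all of them. By mean, Grem1 thus stood beside Nog in NC and next below the ligands at 0 h p.r. In single post-run libraries it lay below every ligand in replicates 1, 2 and 4 and above every ligand in replicate 3.

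To see the members within the rest of the pathway, 68 further gene symbols of the BMP pathway in 7 lists were read from the same fit. Of these, 59 were in the table and 53 were tested. The other 6 were under the filter, and 9 symbols were not analysed here, 1 of them an older symbol of the co-receptor gene Hjv. Of the 53, 3 passed both thresholds as higher and 1 as lower, 7.55% against 2.7% of all tested genes. The fitted differences were above 0 for 37 and below 0 for 16, with a median of 0.18.

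The 4 genes past both thresholds were 3 target genes, Hes1, Id4 and Atoh8, and Skil, which encodes SnoN, a repressor of SMAD-dependent transcription. Hes1, a transcriptional repressor best known as a Notch target, rose from 22.4, 29.5, 23.3 and 24.9 FPKM in NC to 62.7, 44.2, 48.7 and 74.3 FPKM at 0 h p.r., which is 1.16 on the log2 scale (standard error 0.18, adjusted p = 0.0083 in limma). It passed with each of the 8 libraries left out in turn, at adjusted p between 0.00825 and 0.0346. Id4, the remaining gene of the Id family, rose from 20.9, 31.8, 24.2 and 26.5 FPKM to 53.0, 51.5, 38.6 and 79.8 FPKM (log2 fold change 1.06, adjusted p = 0.0281 in limma). In NC its level was close to that of Id2. Its log2 fold change was under the fold threshold with quantile scaling (0.97, adjusted p = 0.042), as it was when 0 h p.r. replicate 4 was left out (0.87), and across the 8 sets with a library left out its adjusted p ranged from 0.024 to 0.0883.

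Atoh8, a helix-loop-helix factor induced by BMP9 in endothelium and by BMP in liver, fell from 9.33, 9.14, 6.83 and 8.09 FPKM in NC to 2.28, 2.11, 2.86 and 5.52 FPKM after running, with replicate 4 nearest to NC. Its log2 fold change was -1.34 (standard error 0.26, adjusted p = 0.0231 in limma). Endothelial markers summed to 531 to 618 FPKM in NC and 510 to 620 FPKM at 0 h p.r., with 0 of 8 past both thresholds and none at 0 in any library. Of the 8, 7 had fitted differences below 0, and Egfl7 was higher with groups apart (log2 fold change 0.75, adjusted p = 0.027 in limma). Their part in the Atoh8 values was not tested. Skil rose from 8.10, 4.91, 8.95 and 12.4 FPKM to 20.2, 23.8, 15.7 and 22.6 FPKM (log2 fold change 1.26, adjusted p = 0.0256 in limma). With a library left out, the adjusted p ranged from 0.0193 to 0.0903 for Skil and from 0.00192 to 0.0775 for Atoh8, and was under 0.05 in 4 and 2 of the 8 sets.

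The inhibitors inside the cell and at the membrane had fitted differences above 0 in 7 of 7 tested genes, with a median of 0.71. Only Skil passed both thresholds among them, and Smurf1, a ubiquitin ligase that targets BMP SMADs and which was chosen after its values were seen, passed the adjusted p alone (0.0309 in limma) at a log2 fold change of 0.71. The list was above 0 in all 7 genes under each other scaling, pseudocount and weighting tried and in 6 of 7 without 0 h p.r. replicate 4. Unlike Smad6, the other inhibitory SMAD gene Smad7, also chosen after its values were seen, had groups that did not overlap, with 7.505, 4.70, 7.99 and 7.95 FPKM in NC and 10.9, 10.3, 10.5 and 16.2 FPKM at 0 h p.r., but its adjusted p was 0.0736. The difference between Smad6 and Smad7 was not tested.

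The 12 tested receptors and co-receptors had fitted log2 fold changes of -0.43 to 0.29, 6 above and 6 below 0 and 0 past both thresholds. Single libraries could lie much farther apart, as for the co-receptor gene Hjv, named after its values were seen, which ranged from 49.4 to 72.5 FPKM in NC and from 11.6 to 288 FPKM after running (log2 fold change 0.11, 95% interval -1.72 to 1.94). The largest was that of Acvr2a, a type II receptor shared by activins and BMPs, at 9.39, 8.29, 10.5 and 8.75 FPKM in NC and 6.53, 6.20, 7.12 and 6.92 FPKM after running. Its groups were apart, with a log2 fold change of -0.43 (95% interval -0.70 to -0.17), and the adjusted p in limma was 0.0637. The 3 tested SMAD transducers, Smad1, Smad5 and Smad4, differed by 0.16 to 0.19 on the log2 scale. Smad1, with the largest of these, had an adjusted p of 0.383 in limma.

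Other ligands and ligand-binding proteins contributed 0 genes past both thresholds. Among the 5 other tested ligands the largest difference was that of Gdf5, a joint and tendon factor, at 0.71 (adjusted p = 0.556 in limma), which rested on 0 h p.r. replicate 4 at 9.04 FPKM against 1.01 to 2.20 in the other post-run libraries and 0.407 to 3.34 in NC. Without that library it was 0.15. Among 12 other secreted antagonists and modulators, Smoc2, a matrix protein that can act against BMP signalling, had the largest difference, 1.92 (adjusted p = 0.118 in limma), with 4.82, 1.78, 13.0 and 9.72 FPKM in NC and 17.4, 17.9, 13.6 and 73.9 FPKM after running. In the same list Bmper, a secreted modulator that binds BMPs and which was chosen after its values were seen, was at 3.31, 2.03, 1.80 and 2.57 FPKM in NC and at 0.656, 1.35, 1.01 and 1.32 FPKM after running. Its groups were apart, with all 4 post-run libraries below NC, and its log2 fold change was -0.88 (95% interval -1.38 to -0.38, adjusted p = 0.0516 in limma), and it passed both thresholds with voom on the recovered reads. Among 5 processing enzymes, Pcsk5, a proprotein convertase, was at 2.56, 2.08, 4.08 and 4.04 FPKM in NC and 3.21, 3.61, 5.55 and 25.9 FPKM at 0 h p.r. (log2 fold change 0.97, adjusted p = 0.359 in limma). For Gdf5, Smoc2 and Pcsk5 alike, the highest value was in replicate 4 at 0 h p.r. Of all libraries it had the highest summed cartilage, bone and tendon markers and the lowest summed skeletal muscle markers. Of its tendon sum of 22296 FPKM, 14777 FPKM was Dcn. Its Scx, at 32.1 FPKM, was the lowest post-run value and its Tnmd, at 225 FPKM, the highest, within the NC range. The part of cartilage, bone, tendon and muscle RNA in the values of that library was not tested. Without that library the log2 fold changes of Smoc2 and Pcsk5 were 1.38 and 0.34.

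**Figure D5:**
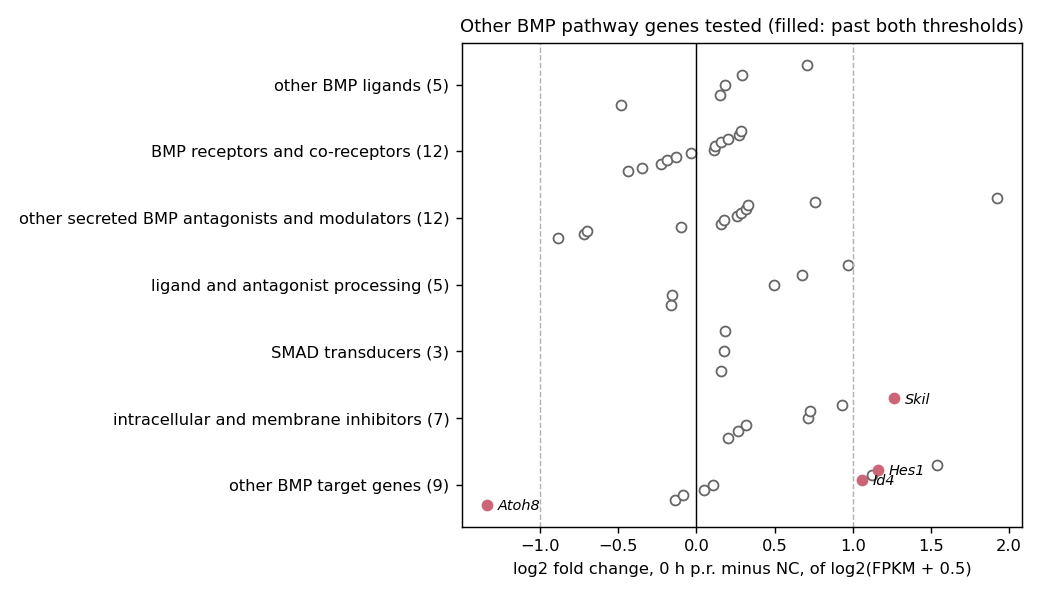
Fitted log2 fold change of log2(FPKM + 0.5), 0 h p.r. minus NC, for the 53 tested genes in 7 lists of other BMP pathway genes, with the number tested beside each list. Each point is a gene, vertical spread within a list only separates points, dashed lines mark a fold of 2, and the filled points are Skil, Hes1, Id4 and Atoh8. The inhibitors lie to the right of 0 while the receptors lie on both sides of it.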

How the data were processed

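Rat Achilles tendon polyA RNA was sequenced from 4 NC and 4 0 h p.r. libraries, placed in their groups and numbered from the sample titles. Per the study's methods and the processing notes, the authors made stranded libraries, aligned reads to Rnor_6.0 with HISAT2 2.1.0 and counted them per gene with featureCounts 1.6.3. The deposited FPKM values are scaled for gene length and also between libraries, since median ratios lay between 0.998 and 1.02. The table also held the authors' fold changes and p-values from DESeq2 1.30.1, which were not used. No genome of that build was used, so gene positions on it are not given.

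FPKM values are not counts, so limma 3.58.1 in R 4.3.3 (lmFit and eBayes with a trend, no covariate, two-sided) was run on log2(FPKM + 0.5) of the 13863 genes that reached 0.5 FPKM in 4 or more of the 8 libraries. Benjamini-Hochberg adjustment ran over all of them. Whole reads were recovered from the FPKM steps for 15590 of 15590 genes, and served for depth and for a voom fit. The tolerance was 0.01 reads, and wider for genes with many reads. The limma fit was tested on simulated data. Sums, ratios and figures were made in Python 3.11.15 with numpy 2.4.6, pandas 2.3.3 and matplotlib 3.10.9.

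The members and gene lists were chosen with earlier results of these data known. Named genes were all 10 members and, of each pathway list, the genes past both thresholds or, where none passed, the tested gene with the largest difference, and others named are said to be chosen after their values were seen or serve as markers. Marker lists covered tendon, cartilage, bone, skeletal muscle, adipocytes, endothelium, erythroid cells, neutrophils, macrophages and Schwann cells, of which the last 4 had summed FPKM of 157 to 600.1, 1.29 to 3.73, 49.0 to 86.3 and 416 to 585.5 in NC and 135 to 501, 1.37 to 2.17, 33.8 to 74.2 and 343.5 to 526 at 0 h p.r., with 1 neutrophil marker higher and 1 lower past both thresholds and 0 of the other 3 lists. The settings varied were the pseudocount (0.1 and 1), the filter (none, or a mean of 2 FPKM and over), the scaling (quantile or median-ratio), array weights, the replicate number as a block, voom on recovered reads, the adjusted p alone, and leaving out each library in turn.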

Additional observations from a re-analysis of the deposited data

Results flagged for a closer look

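Values far from the rest of their group were looked for in the 2 groups of each of 19 named genes, 38 in all, with Dixon's ratio of the gap to the range and its 95% critical value. Chance flags about 5% of such groups, close to 2 of 38, and 3 were found. Id1 in NC replicate 3 was at 100.1 FPKM, below 135 to 142 in the other NC libraries (ratio 0.842). Smoc2 in 0 h p.r. replicate 4 was at 73.9 FPKM, above 13.6 to 17.9 in the other post-run libraries (ratio 0.839). Smad1 in NC replicate 3 was lowest at 22.0 FPKM, the other NC libraries being at 23.2 to 23.3 (ratio 0.937), where the 3 others were so close together that a difference of about 1 FPKM stood out.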

How the results depend on the processing

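The directions of 9 of the 10 members were kept under every alternative in which they were fitted. The exception was Id1, whose log2 fold change lay between -0.15 and 0.073 with a library left out and was above 0 in 5 of those 8 fits. Of 341 alternative readings of the 19 named genes, 305 kept direction and side of the thresholds, 30 lost and 1 gained the call, and 5 turned. Among these, the adjusted p alone reread the main fit, so it could not turn a direction. The count of members past both thresholds was 0 with a pseudocount of 0.1 (Grem1 adjusted p = 0.059), 0 with no filter (0.052), 0 with voom on the recovered reads (0.0613) and 0 to 1 with a library left out, where Grem1 ranged from 0.0364 to 0.128. The cause was not tested. With array weights Bmp2, Bmp4 and Id2 had adjusted p of 0.046, 0.048 and 0.023, all under the fold threshold. Over all genes the count of 374 was 418 with voom, 793 at any fold and 195 to 516 with a library left out. For the other pathway genes it went from 4 to 5 with voom (Bmper added), to 3 with quantile scaling (Id4 lost) and to 1 to 3 with a library left out. With the replicate block the counts were 212 for all genes, 2 for the members (Bmp2 adjusted p = 0.0476, Grem1 0.005) and 1 for the other pathway genes (Hes1). Same-numbered libraries did not deviate together (correlations of -0.141, -0.071, 0.072 and 0.006), and no library correlated best with its own number, so they share only a number. Nog was not fitted with a mean FPKM of at least 2.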

Other observations

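Further values of 3 pathway genes, chosen after they were seen, are given here. Hjv, the BMP co-receptor hemojuvelin, which is made in skeletal muscle and liver, was at 49.4 to 72.5 FPKM in NC and at 288, 43.7, 117 and 11.6 FPKM in 0 h p.r. replicates 1 to 4, in the same order as the summed skeletal muscle markers of those libraries (29508, 5140, 13819 and 929 FPKM). The part of muscle RNA in these values was not tested. Kcp, a secreted modulator of BMP signalling that was under the filter on low values, was at 0.433 to 0.869 FPKM in NC and at 0.117 to 0.249 FPKM after running. Sost, the osteocyte antagonist sclerostin, was listed at 0 in 2 NC libraries and at 0.151 and 0.102 FPKM in the others, each from 1 read, and was at 0.225, 0.165, 0.933 and 1.24 FPKM in 0 h p.r. replicates 1 to 4, from 2, 2, 8 and 15 reads.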
